A study of Mus musculus with 24 samples.

Results

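The 10 genes Omp, Stoml3, Gap43, Gng8, Stmn1, Stmn2, Tubb3, Dcx, Crmp1 and Nefh were followed in the olfactory epithelium of mice exposed to an odorant or to empty paper. They are 10 of the 57010 genes of each deposited count table, chosen by name and found by Ensembl ID in all 24 libraries. Omp and Stoml3 stand for the mature olfactory sensory neuron. Gap43, Gng8, Stmn1, Stmn2, Tubb3, Dcx and Crmp1 stand for the young neuron that is growing its axon, and Nefh, a neurofilament gene, stands for axons of large calibre.

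The mice were wild-type C57BL/6J males aged 8 weeks, and all 8 groups held 3 mice. After 4 h in an odor-free chamber, each mouse was exposed for 90 min to 10 µL of odorant on filter paper, or to empty paper. The first set of mice, the AD batch, had no odor, acetophenone, decanal or a 1:1 mixture of acetophenone and decanal, called the AD mixture here. The second set, the OC batch, had no odor, octanal, cis-3-hexenol or their 1:1 mixture, called the OC mixture. The labels describe pure odorants and wild-type animals, so no transgene or allele enters. RNA came from a detergent-cleared homogenate of the whole epithelium, so each library pools all cell types of 1 mouse, and a lower level of a neuronal transcript through fewer such cells cannot be told apart from less RNA per cell.

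The olfactory epithelium replaces its sensory neurons throughout life. Basal progenitors give rise to immature neurons, which express genes for axon growth and the microtubule cytoskeleton, above all Gap43, before their axons reach the olfactory bulb. On maturation these genes are turned down, and the neuron acquires cilia, the odor transduction cascade and Omp, a cytoplasmic protein that is used as the standard mark of a mature olfactory neuron.

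Promoter sequences were taken from RefSeq (build GRCm38.p6) for members whose messages moved apart or together in the tests below. Stoml3 and Dcx were called in opposite directions after 2 of the OC odorants, and Gng8 was called higher in the AD mixture together with Gap43, Stmn1 and Stmn2. Of the 10 members, 5 had an entry (Stoml3, Gng8, Tubb3, Dcx and Crmp1), in 7 windows of 300 bases that reach from 250 bases before the start to 50 bases after it. Only the bases ahead of the first annotated base of each gene are shown, 5′ to 3′ on the strand of the gene, in lower case with a TATAAA match in capitals. The Stoml3 stretch is chr3:53488457-53488652 on the plus strand, the Gng8 stretch is chr7:16891536-16891785 on the plus strand, and the Dcx stretch is chrX:143933312-143933469 on the minus strand.
Stoml3: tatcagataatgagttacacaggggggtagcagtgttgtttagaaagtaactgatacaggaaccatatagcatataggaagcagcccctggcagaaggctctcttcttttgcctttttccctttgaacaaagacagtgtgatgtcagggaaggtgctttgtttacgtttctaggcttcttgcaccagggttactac
Gng8: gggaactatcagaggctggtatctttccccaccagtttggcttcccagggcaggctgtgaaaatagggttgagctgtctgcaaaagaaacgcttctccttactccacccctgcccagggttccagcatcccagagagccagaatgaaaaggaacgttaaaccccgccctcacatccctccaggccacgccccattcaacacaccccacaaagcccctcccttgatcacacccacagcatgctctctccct
Dcx: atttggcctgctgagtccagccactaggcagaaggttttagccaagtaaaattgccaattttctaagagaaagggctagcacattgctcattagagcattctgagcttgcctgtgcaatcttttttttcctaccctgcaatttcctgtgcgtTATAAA
Searches for 4 motifs covered both strands of the 7 windows. TATAAA, the letters of a TATA box, was found in 2 of them, against 13.6% of all 32544 windows. Both are windows of Dcx that overlap each other and hold the same site. Its first letter lies 98 bases before one start and 193 before the other, and whether it acts as a TATA box was not tested. TAATTA, a homeodomain core, was found in the same 2 windows, again as the same site, at 39 and 134 bases before the starts, against 5.3% of all windows. CCCNNGGG, the core bound by Ebf factors, was found in 0 of 7 windows against 13.7% of all, and CAGATG, an E-box of proneural factors, in 0 of 7 against 17.1%. These letters describe the windows and were not tested against the expression values.

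AD libraries held 20604861 to 24802512 counts and OC libraries 19003768 to 24531349. Levels are given as CPM, counts relative to the library size, scaled by TMM within a batch, so levels of the 2 batches are set side by side only. Omp stood at 8875 CPM or more in every library, and Cyp2g1, an enzyme of the sustentacular support cells, ran from 1327 to 2600 CPM. The vomeronasal channel gene Trpc2 lay between 0 and 6.09 CPM, and the nociceptor channel gene Scn10a did not pass 0.0922 CPM in any library. The whole lists were higher, with sums of 678 to 795 CPM for 11 vomeronasal genes and 41.4 to 54.9 CPM for 10 sensory ganglion genes. Of 6 vomeronasal genes tested, 2 were called higher and 1 lower after octanal. Trpc2 was among the higher (log2 fold change 1.83), and Gnai2 was the lower (-0.25). Prph of the ganglion list is given with Nefh below. The summed level of 10 olfactory bulb markers ran from 175 to 211 CPM in the AD controls, 173 to 189 after acetophenone, 142 to 162 after decanal, 132 to 178 in the AD mixture and 151 to 213 over the OC groups. Of 9 bulb markers tested, 1 was called lower after decanal, at a median log2 fold change of -0.49, and 1 in the AD mixture, at a median of -0.29. The bulb sums after decanal thus lay wholly below the AD controls, and those of the AD mixture overlapped them. The gene called after decanal was Slc17a6 (log2 fold change -0.32), which had the highest mean count of the list in the AD batch, 2239. The sum thus leans on this gene, and whether it marks bulb tissue was not tested.

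Markers of blood, marrow, bone and several other cell types moved between groups together with several of the results below. The summed level of 5 erythroid genes (4 globins and Alas2) ran from 492 to 646 CPM in the AD controls, 228 to 624 after acetophenone, 2135 to 2568 after decanal and 1788 to 2532 in the AD mixture. In the OC batch it ran from 2153 to 4462 CPM in the controls, 745 to 1119 after octanal, 1288 to 1936 after cis-3-hexenol and 843 to 1816 in the OC mixture. Erythroid markers were thus low in the AD controls and high in the OC controls, and all 5 were called higher after decanal and in the AD mixture and lower after octanal, with 4 of 5 lower after cis-3-hexenol and in the OC mixture. The sum of 7 bone genes ran from 1225 to 1441 CPM in the AD controls, 1733 to 2385 after decanal, 1987 to 3152 in the AD mixture, 2059 to 3262 in the OC controls and 1048 to 1781 over the 3 OC odorants. Of 8 neutrophil and marrow genes, 7 were called higher after decanal, 7 higher in the AD mixture, 7 lower after octanal, 0 after cis-3-hexenol and 5 lower in the OC mixture. The summed level of those 8 ran from 169 to 616 CPM in the AD controls, 125 to 178 after acetophenone, 291 to 437 after decanal, 313 to 460 in the AD mixture, 276 to 436 in the OC controls and 157 to 285 over the 3 OC odorants. Sustentacular markers, 7 genes, summed to 3000 to 4199 CPM in the OC controls, 4466 to 4953 after octanal, 4131 to 4319 after cis-3-hexenol and 4413 to 4469 in the OC mixture, and to 4275 to 4627 in the AD controls, 4619 to 4852 after acetophenone, 3988 to 4357 after decanal and 3827 to 4173 in the AD mixture. The AD mixture libraries thus lay wholly below their controls in these markers. The sum of 8 olfactory ensheathing and Schwann cell genes ran from 388 to 446 CPM in the OC controls. It ran from 309 to 332 after octanal, 356 to 387 after cis-3-hexenol and 340 to 344 in the OC mixture, all below those controls. In the AD batch it ran from 359 to 395 CPM in the controls, 257 to 347 after acetophenone, 331 to 366 after decanal and 329 to 373 in the AD mixture. The sum of 8 microvillar cell and ionocyte genes ran from 217 to 242 CPM in the AD controls, 214 to 242 after acetophenone, 294 to 311 after decanal, 302 to 311 in the AD mixture and 239 to 307 over the OC groups, and 3 of 8 were called higher after decanal and 3 in the AD mixture. The sum of 8 nasal gland genes ran from 6946 to 35194 CPM in the OC controls, 5073 to 10130 over the 3 OC odorants, 3546 to 7341 in the AD controls, 3557 to 14035 after acetophenone, 4547 to 14485 after decanal and 8406 to 20356 in the AD mixture, the last wholly above its controls. The sum of 6 horizontal basal cell genes ran from 156 to 160 CPM in the OC controls. It ran from 144 to 146 after octanal, 131 to 136 after cis-3-hexenol and 112 to 124 in the OC mixture, all below those controls. In the AD batch it ran from 127 to 142 CPM in the controls, 130 to 150 after acetophenone, 127 to 144 after decanal and 115 to 151 in the AD mixture. No gene of these lists was at 0 in all libraries of a group. Their part in the member results was not tested.

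Per kilobase of the longest transcript, levels in the AD controls differed widely between members. Omp led with 4459 ± 180 CPM per kb (SD, n = 3), followed by Stoml3 at 2359 ± 109 and Stmn1 at 642 ± 49.0. Gap43 at 201 ± 17.9 and Tubb3 at 196 ± 10.3 CPM per kb did not differ beyond their spread. Stmn2 followed at 73.6 ± 3.89, Crmp1 at 43.1 ± 2.16, Gng8 at 20.2 ± 1.51, Dcx at 8.57 ± 0.276 and Nefh at 1.03 ± 0.119 CPM per kb. In the OC controls the order was Omp (6097 ± 339), Stoml3 (2137 ± 240), Stmn1 (821 ± 84.4), Gap43 (222 ± 30.0), Tubb3 (150 ± 25.9), Stmn2 (80.1 ± 5.21), Crmp1 (27.2 ± 1.85), Gng8 (23.3 ± 3.75), Dcx (9.78 ± 0.887) and Nefh (0.593 ± 0.112 CPM per kb). Crmp1 and Gng8 did not differ beyond their spread there. The plot of marker levels shows all 10 genes in CPM.

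**Figure D1:**
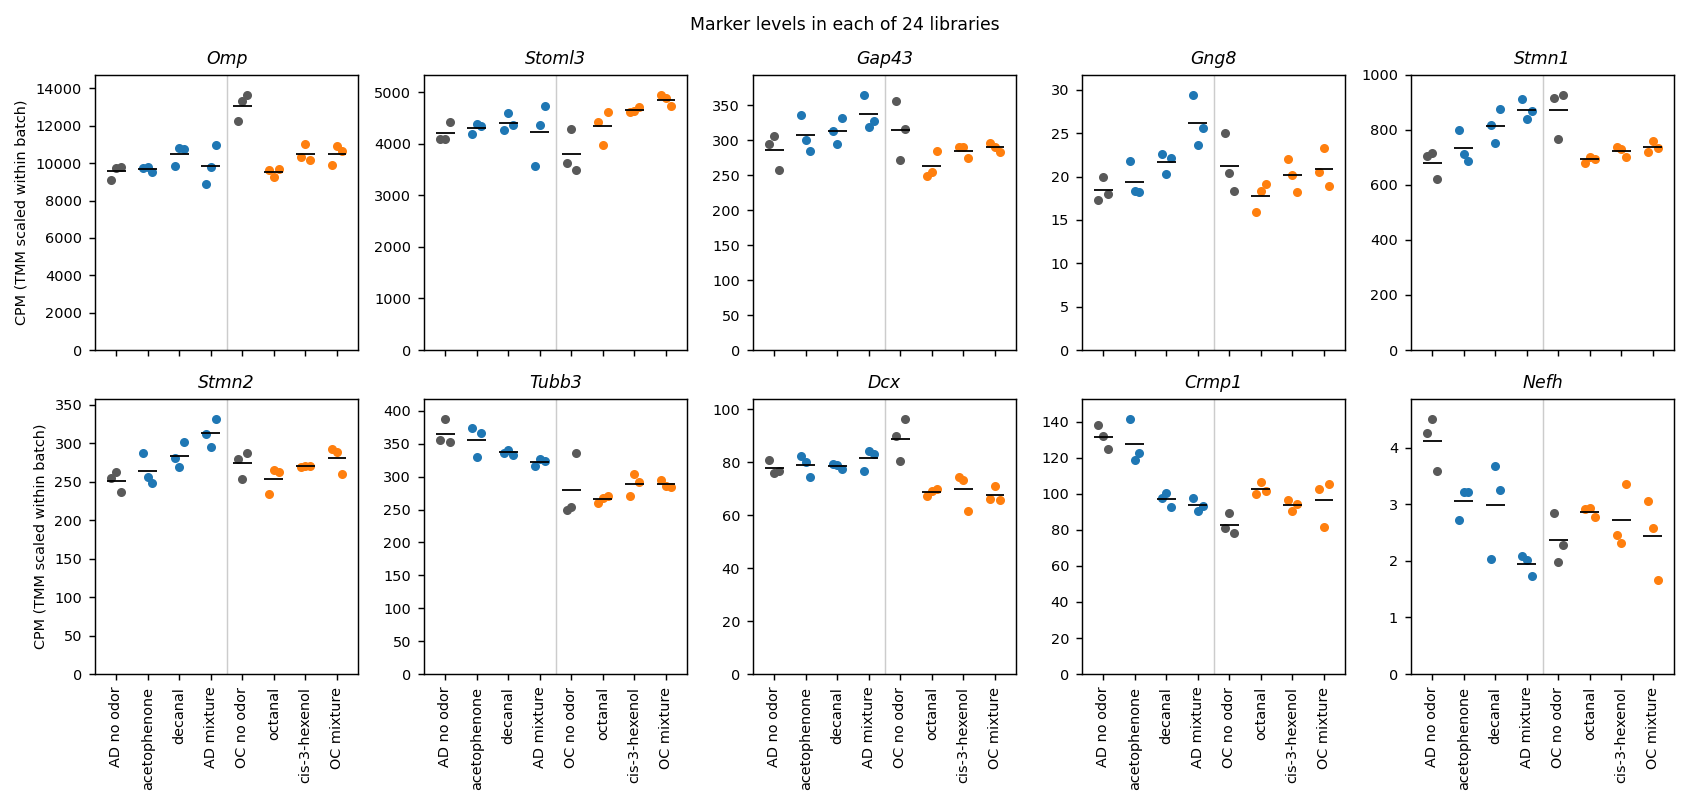
Level of each of the 10 markers in each of 24 libraries, in CPM scaled by TMM within a batch, on axes that start at 0. Each point is 1 mouse and each bar a group mean; grey points are no-odor controls, blue points AD odorants and orange points OC odorants, and the 3 OC controls hold the highest Omp values, from 12255 to 13649 CPM.

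Each odorant was compared with the no-odor mice of its own batch by the quasi-likelihood F-test of edgeR, with p adjusted by Benjamini-Hochberg over all genes tested and 0.05 as the limit for a call. The 3 comparisons of a batch share their 3 control libraries. All 10 members passed the filter on low counts in both batches. Each test was repeated with loess offsets that remove, library by library, any trend of counts with transcript length and GC content. Acetophenone called 0 of 10 members, and of all 19525 genes tested 0.00512% were called (1 gene). Decanal called 1 member higher, against 11.4% of all genes, and 1 lower, against 12.5%. The AD mixture called 4 higher, against 10.6%, and 3 lower, against 11.6%. Octanal called 1 higher, against 14.4%, and 4 lower, against 15%. Cis-3-hexenol called 1 higher, against 5.56%, and 3 lower, against 6.65%. The OC mixture called 1 higher, against 11.5%, and 3 lower, against 12.7%. The AD mixture count of 7 was 5 to 7 when each library was left out in turn, and the cis-3-hexenol count of 4 was 1 without cis-3-hexenol replicate 3 and 2 without OC control replicate 1 or 3 or cis-3-hexenol replicate 1. The decanal count of 2 was 1 without AD control replicate 3, decanal replicate 1 or decanal replicate 3. Calls over all genes fell in these runs too. In the AD mixture they went from 4347 to between 3087 and 4207. For cis-3-hexenol they went from 2341 to 533, 1469, 1498 and 1222, and for decanal from 4660 to 3391, 3624 and 3448, in the order of the runs named.

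**Figure D2:**
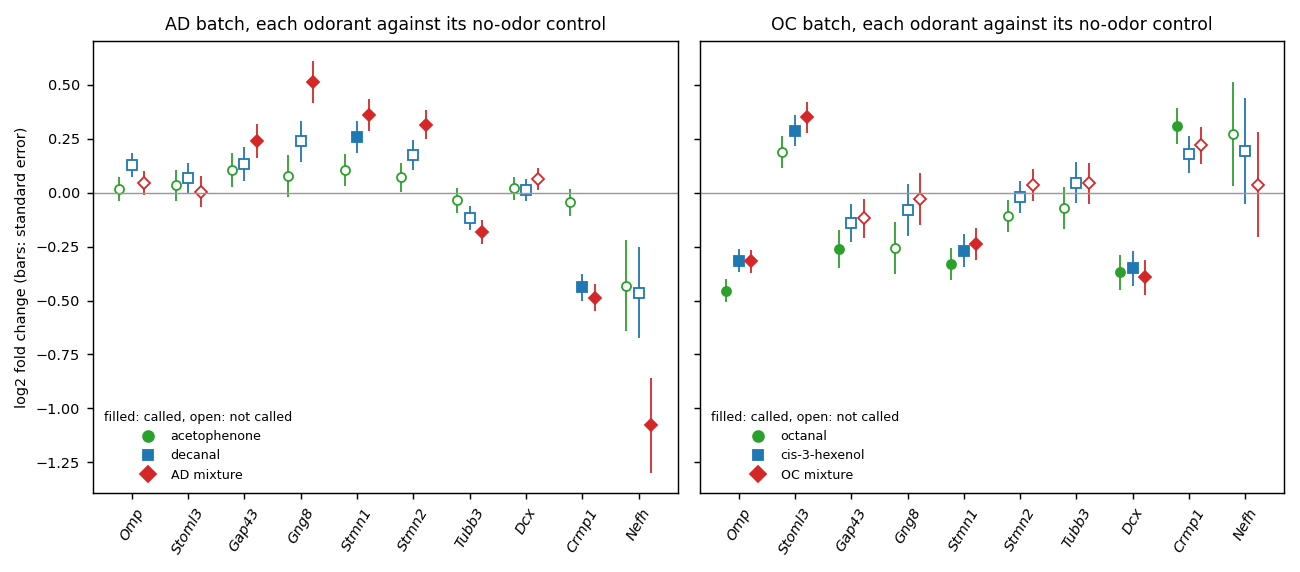
Log2 fold change of each marker for each odorant against the no-odor control of its batch, with the AD batch on the left and the OC batch on the right. Vertical lines are standard errors from the fit and filled symbols are called genes; Crmp1 lies below 0 after decanal (-0.44) and above 0 after octanal (0.31), and Omp lies below 0 after all 3 OC odorants.

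Omp (ENSMUSG00000074006, chromosome 7) was lower after every odorant of the OC batch and was not called after any odorant of the AD batch. In the OC controls it stood at 12255, 13314 and 13649 CPM. Octanal libraries had 9659, 9264 and 9704 CPM, cis-3-hexenol libraries 10318, 11025 and 10193, and OC mixture libraries 9913, 10899 and 10631. Every exposed library of the batch lay below every control. After octanal Omp fell to 0.73 of the control level (log2 fold change -0.45, SE 0.05, adjusted p = 0.000105). The log2 fold change was -0.31 after cis-3-hexenol (SE 0.05, adjusted p = 0.00417) and -0.32 in the OC mixture (SE 0.05, adjusted p = 0.000735). These 3 calls held without any 1 library and in every other setting run. In the AD batch the controls had 9115, 9760 and 9805 CPM, the acetophenone libraries 9731, 9797 and 9515, and the AD mixture libraries 8875, 9781 and 10946. Both AD groups overlapped with their controls. The decanal libraries, at 9837, 10788 and 10771 CPM, lay above the 3 controls (log2 fold change 0.13, SE 0.06, adjusted p = 0.104), and this was called with no filter (adjusted p = 0.000832) and with only the 6 libraries compared (0.0117). The 3 OC controls were also the 3 highest of all 24 libraries, which compares levels across batches scaled separately. Capn5, a protease gene that contains Omp on the same strand, ran from 11.6 to 19.6 CPM.

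Stoml3 (ENSMUSG00000027744, chromosome 3), a stomatin-like membrane protein of olfactory cilia, moved the other way from Omp in the OC batch. Its control libraries had 3624, 4292 and 3498 CPM, with the second replicate apart from the other 2. Cis-3-hexenol libraries had 4607, 4627 and 4710 CPM and OC mixture libraries 4943, 4887 and 4722, all above the controls. The octanal libraries, at 4409, 3982 and 4613 CPM, overlapped with them. Stoml3 rose in the OC mixture (log2 fold change 0.35, SE 0.07, adjusted p = 0.00305) and after cis-3-hexenol (0.29, SE 0.07, adjusted p = 0.0206). The cis-3-hexenol call was lost without OC control replicate 1 (adjusted p = 0.0512), cis-3-hexenol replicate 1 (0.0569) or cis-3-hexenol replicate 3 (0.0843). It was also lost with only the 6 libraries compared, and with length and GC offsets together with a replicate block. For octanal the log2 fold change was 0.19 (SE 0.07, adjusted p = 0.064), and it was called without OC control replicate 2 (0.29, adjusted p = 0.00441) or octanal replicate 2 (0.26, adjusted p = 0.0262). In the AD batch Stoml3 ran from 3558 to 4722 CPM, with log2 fold changes between 0.01 and 0.07 and no call. The 2 mature markers thus parted after cis-3-hexenol and in the OC mixture.

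Gap43 (ENSMUSG00000047261, chromosome 16), a growth cone protein phosphorylated by protein kinase C, was called higher in the AD mixture and lower after octanal. Its AD control libraries had 295, 306 and 257 CPM and the AD mixture libraries 365, 319 and 328. The groups did not overlap, and the log2 fold change was 0.24 (SE 0.08, adjusted p = 0.0414). Decanal libraries had 314, 295 and 332 CPM (log2 fold change 0.13, adjusted p = 0.25) and acetophenone libraries 336, 300 and 285 (0.10, adjusted p = 0.833), both overlapping with the controls. In the OC batch the controls had 357, 272 and 315 CPM and the octanal libraries 249, 255 and 285. These groups overlapped, and Gap43 fell (log2 fold change -0.26, SE 0.09, adjusted p = 0.0381). The cis-3-hexenol libraries (291, 290 and 274 CPM) and the OC mixture libraries (296, 290 and 283) lay within the control range, with log2 fold changes of -0.14 and -0.12 (adjusted p = 0.32 and 0.364). Both Gap43 calls were lost with length and GC offsets, at 0.08 in the AD mixture (adjusted p = 0.499) and -0.19 after octanal (0.128), and when some single libraries were left out. The AD mixture value was 0.26 (adjusted p = 0.0705) without AD control replicate 1, 0.16 (0.211) without AD control replicate 3, 0.17 (0.194) without AD mixture replicate 1 and 0.24 (0.0714) without AD mixture replicate 3. The octanal value was -0.14 (0.21) without OC control replicate 1, -0.26 (0.0596) without OC control replicate 3, -0.21 (0.171) without octanal replicate 1 and -0.23 (0.142) without octanal replicate 2.

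Gng8 (ENSMUSG00000063594, chromosome 7), a G protein gamma subunit found in immature olfactory neurons, rose in the AD mixture. The AD controls had 17.3, 19.9 and 18.0 CPM, the AD mixture libraries 29.4, 23.7 and 25.6, and the decanal libraries 22.6, 20.3 and 22.1. Both exposed groups lay above the controls. In the AD mixture the log2 fold change was 0.51 (SE 0.10, adjusted p = 0.00145), a 1.43-fold rise. The call held without any 1 library and was lost with length and GC offsets (0.24, adjusted p = 0.0559). After decanal the log2 fold change was 0.24 (SE 0.10, adjusted p = 0.0909). Acetophenone libraries, at 21.8, 18.3 and 18.2 CPM, overlapped with the controls. Among OC libraries Gng8 ran from 15.9 to 25 CPM with no call, and the octanal value of -0.26 (adjusted p = 0.127) was called without OC control replicate 3 (-0.35, adjusted p = 0.0466).

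Stmn1 (ENSMUSG00000028832, chromosome 4) encodes stathmin, which binds tubulin dimers and favours microtubule disassembly, and it was the member called in the most comparisons. The AD controls had 704, 716 and 621 CPM, the decanal libraries 816, 751 and 875 and the AD mixture libraries 912, 839 and 870. Both exposed groups lay above all 3 controls. Stmn1 rose after decanal (log2 fold change 0.26, SE 0.07, adjusted p = 0.0175) and in the AD mixture (0.36, SE 0.07, adjusted p = 0.00232). Acetophenone libraries had 801, 711 and 685 CPM and overlapped with the controls (0.11, adjusted p = 0.815). The OC batch went the opposite way. Its controls had 917, 767 and 927 CPM, the octanal libraries 681, 702 and 694, the cis-3-hexenol libraries 736, 729 and 703, and the OC mixture libraries 721, 758 and 735. All 9 exposed libraries lay below the lowest control. Stmn1 fell, with log2 fold changes of -0.33 after octanal (SE 0.08, adjusted p = 0.00453), -0.27 after cis-3-hexenol (SE 0.08, adjusted p = 0.032) and -0.24 in the OC mixture (SE 0.08, adjusted p = 0.032). All 5 calls were lost with length and GC offsets, at 0.02 after decanal (adjusted p = 0.865), 0.12 in the AD mixture (0.198), -0.18 after octanal (0.101), -0.22 after cis-3-hexenol (0.0901) and -0.22 in the OC mixture (0.0545). The decanal call was also lost without AD control replicate 3 (0.19, adjusted p = 0.0966), decanal replicate 1 (0.23, 0.0659) or decanal replicate 3 (0.18, 0.12). The cis-3-hexenol call was lost without OC control replicate 1 (-0.22, adjusted p = 0.0851), OC control replicate 3 (-0.21, 0.0638) or any 1 exposed library (-0.28 to -0.25, 0.0774 to 0.128), and the OC mixture call without OC control replicate 1 (-0.19, 0.0943), OC control replicate 3 (-0.18, 0.0603) or any 1 exposed library (-0.25 to -0.21, 0.0584 to 0.129).

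Stmn2 (ENSMUSG00000027500, chromosome 3), the neuronal stathmin of growth cones, was called in the AD mixture. Its AD controls had 254, 263 and 237 CPM and the AD mixture libraries 312, 295 and 331. The groups did not overlap, and the rise (log2 fold change 0.32, SE 0.07, adjusted p = 0.004) held in every setting run. Decanal libraries, at 281, 269 and 301 CPM, also lay above the controls, with 0.18 (SE 0.07, adjusted p = 0.0786). That value was called with a robust fit (adjusted p = 0.0496), by DESeq2 (0.0373), with only the 6 libraries compared (0.0421) and with length and GC offsets (0.0341). Among OC libraries Stmn2 ran from 234 to 292 CPM, the groups overlapped and no comparison was called.

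Tubb3 (ENSMUSG00000062380, chromosome 8), the beta-tubulin of neurons, fell in the AD mixture, the opposite direction to the 4 young-neuron markers above. The AD controls had 355, 388 and 353 CPM, the AD mixture libraries 316, 327 and 324, and the decanal libraries 336, 341 and 333. Both exposed groups lay below the controls. The log2 fold change was -0.18 in the AD mixture (SE 0.06, adjusted p = 0.0335) and -0.12 after decanal (SE 0.06, adjusted p = 0.157). The AD mixture call was lost without AD control replicate 1 (-0.20, adjusted p = 0.0511), AD control replicate 2 (-0.14, 0.152) or AD mixture replicate 1 (-0.18, 0.0655). In the OC batch the controls had 249, 254 and 336 CPM, so that the third replicate stood above the other 2 and above all 9 exposed libraries, which ran from 260 to 304. Log2 fold changes there were between -0.07 and 0.05, and without OC control replicate 3 the OC mixture was called at 0.20 (adjusted p = 0.0324). In the annotation used for names, a predicted gene overlaps Tubb3 on the same strand, so some reads may have been assigned to either.

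Dcx (ENSMUSG00000031285, X chromosome) encodes doublecortin, a microtubule-binding protein of migrating and growing neurons. It fell after all 3 OC odorants. The OC controls had 89.8, 80.3 and 96.3 CPM, the octanal libraries 67.4, 69.0 and 69.7, the cis-3-hexenol libraries 74.3, 73.2 and 61.7, and the OC mixture libraries 66.2, 71.1 and 65.7. All 9 exposed libraries lay below the controls, as for Omp and Stmn1. The log2 fold change was -0.37 after octanal (SE 0.08, adjusted p = 0.00333), -0.35 after cis-3-hexenol (SE 0.08, adjusted p = 0.014) and -0.39 in the OC mixture (SE 0.08, adjusted p = 0.00292). The octanal and OC mixture calls held in every setting run. The cis-3-hexenol call was lost without OC control replicate 3 (-0.28, adjusted p = 0.0513) or cis-3-hexenol replicate 3 (-0.27, 0.085) and with length and GC offsets (-0.26, 0.0583). It was also lost with those offsets and a replicate block, and with only the 6 libraries compared. In the AD batch Dcx ran from 74.2 to 84.3 CPM, with log2 fold changes between 0.01 and 0.07 and no call.

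Crmp1 (ENSMUSG00000029121, chromosome 5), a collapsin response mediator of semaphorin signalling in growth cones, was called in the opposite direction to Stmn1 after decanal, in the AD mixture and after octanal. The AD controls had 138, 132 and 125 CPM, the decanal libraries 97.7, 101 and 92.8 and the AD mixture libraries 98.0, 90.5 and 93.5. Neither exposed group reached the controls. Crmp1 fell after decanal (log2 fold change -0.44, SE 0.06, adjusted p = 0.000174) and in the AD mixture (-0.49, SE 0.06, adjusted p = 6.98e-05). Acetophenone libraries had 142, 119 and 123 CPM and overlapped with the controls (-0.04, adjusted p = 0.918). In the OC batch the controls had 81.2, 89.2 and 78.3 CPM and the octanal libraries 100, 107 and 102. Crmp1 rose there (log2 fold change 0.31, SE 0.09, adjusted p = 0.013). The decanal, AD mixture and octanal calls held in every setting run. Cis-3-hexenol libraries, at 96.8, 90.4 and 94.3 CPM, lay above the controls (0.18, SE 0.09, adjusted p = 0.185), and OC mixture libraries, at 102, 81.4 and 106, overlapped with them (0.22, SE 0.09, adjusted p = 0.0733). The OC mixture value was called without OC mixture replicate 2 (0.34, adjusted p = 0.00304) or OC control replicate 2 (0.28, adjusted p = 0.0418), with no filter (0.0352) and by DESeq2 (0.0443).

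Nefh (ENSMUSG00000020396, chromosome 11), the heavy neurofilament subunit, was the rarest member, with 36 to 108 counts per library. The AD controls had 4.25, 4.51 and 3.58 CPM and the AD mixture libraries 2.09, 2.02 and 1.74. Nefh fell to 0.474 of the control level in the AD mixture (log2 fold change -1.08, SE 0.22, adjusted p = 0.00259), and the call held in every setting run. The olfactory bulb list, in which Slc17a6 had the most counts, summed to 132 to 178 CPM in the AD mixture against 175 to 211 in the controls. Whether that sum marks bulb tissue, and its part in the Nefh result, were not tested. Acetophenone libraries (2.71, 3.22 and 3.22 CPM) also lay below the controls, with -0.43 (SE 0.21, adjusted p = 0.761), and decanal libraries (2.03, 3.67 and 3.25) gave -0.46 (SE 0.21, adjusted p = 0.129). Among OC libraries Nefh ran from 1.66 to 3.36 CPM with no call. The other neuronal filament genes did not share one direction. Nefl, the light subunit, had log2 fold changes of -0.99 after acetophenone (adjusted p = 0.561), -0.91 after decanal (0.0588), -0.30 in the AD mixture (0.566), 0.24 after octanal (0.683), -0.36 after cis-3-hexenol (0.614) and 0.79 in the OC mixture (0.154), and none was called. Nefm, the medium subunit, was not called in any comparison either, with values from -1.19 to 0.23. Ina, which encodes alpha-internexin, fell after decanal (-0.20, adjusted p = 0.0231), a call lost without AD control replicate 1 or 2 or decanal replicate 1 and with length and GC offsets (-0.14, 0.111). Prph, which encodes peripherin, rose after decanal (0.32, adjusted p = 0.011) and in the AD mixture (0.30, 0.0164) and fell after octanal (-0.39, 0.0205). The decanal and AD mixture calls of Prph were lost without AD control replicate 3, decanal replicate 1 or 3, or AD mixture replicate 1 or 2. Its octanal call was lost without OC control replicate 1 or 3 or octanal replicate 1 or 2, with only the 6 libraries compared, and with length and GC offsets (-0.22, 0.173). These 4 genes were set beside Nefh after their values were seen.

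The balance of mature and young markers was then read as the ratio of Omp to Gap43 in CPM. In the AD controls it was 30.9, 31.9 and 38.1, after acetophenone 28.9, 32.6 and 33.4, after decanal 31.3, 36.6 and 32.4, and in the AD mixture 24.3, 30.6 and 33.4. The OC controls had 34.3, 49.0 and 43.3, the octanal libraries 38.9, 36.3 and 34.1, the cis-3-hexenol libraries 35.5, 38.0 and 37.1, and the OC mixture libraries 33.5, 37.6 and 37.5. Every exposed group overlapped with its controls. Group means were 33.7 ± 3.90 in the AD controls and 29.4 ± 4.63 in the AD mixture (SD, n = 3), and 42.2 ± 7.38 in the OC controls against 36.2 ± 2.38 to 36.9 ± 1.27 in the exposed OC groups. A broader index, the mean log2(CPM + 1) of the 2 mature markers minus that of the 7 young markers, gave 5.24 ± 0.11 in the AD controls, 5.23 ± 0.12 after acetophenone, 5.31 ± 0.09 after decanal and 5.15 ± 0.21 in the AD mixture. For the OC batch it gave 5.41 ± 0.18 in the controls, 5.42 ± 0.10 after octanal, 5.48 ± 0.05 after cis-3-hexenol and 5.49 ± 0.04 in the OC mixture. These differences between group means were smaller than the range of the control libraries, and neither index was tested, because the members were chosen with results known. The broader index averages over members that moved in opposite directions. In the OC mixture Omp had -0.32 and Stoml3 0.35. In the AD mixture Gap43, Gng8, Stmn1 and Stmn2 rose, while Tubb3 (-0.18) and Crmp1 (-0.49) fell. A flat index therefore does not show that the markers were unchanged.

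**Figure D3:**
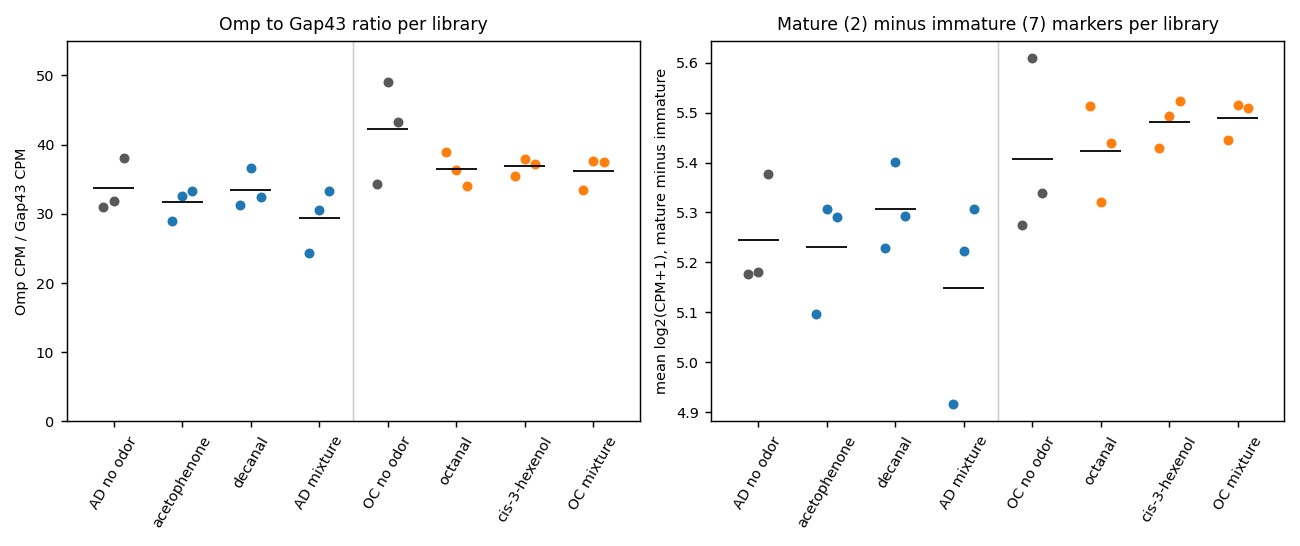
Left, ratio of Omp CPM to Gap43 CPM in each library, on an axis that starts at 0; right, mean log2(CPM + 1) of 2 mature markers minus that of 7 young markers, on an axis that does not start at 0. Points are mice and bars group means (grey no odor, blue AD odorants, orange OC odorants); the AD mixture libraries spread from 24.3 to 33.4 in the ratio and the OC controls from 34.3 to 49.0, and every exposed group overlaps with its controls.

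Over the 24 libraries, with the mean of its batch subtracted from each gene, the young markers Gap43 and Stmn1 varied together most (Pearson r = 0.88), followed by Gng8 and Stmn2 (0.81), Stmn1 and Stmn2 (0.79), Gap43 and Gng8 (0.78) and Gap43 and Stmn2 (0.77). Omp varied with Dcx (r = 0.74) and hardly with Stoml3 (-0.23) or Gap43 (0.35). Stoml3 and Dcx ran in opposite directions (-0.62), as did Stmn1 and Crmp1 (-0.73). These values describe libraries that share controls, depth and tissue composition and carry no test. Among 14520 genes with at least 1 CPM on average, those most like Omp were Spef1 (r = 0.93), Slc1a2 (0.92), H2afy (0.91), Rnf220 (0.91) and Fam92b (0.90). Those most like Gap43 were Jpt1 (r = 0.90), Stmn1 (0.88), Qdpr (0.87), Ube2c (0.86) and Hes6 (0.83).

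Other genes of mature neurons were read from a list of 21 that holds the transduction cascade, receptor chaperones and neuronal adhesion molecules, all of which were tested. These list counts are from the main tests, without length and GC offsets. Over all genes those offsets lowered the calls from 4660 to 3408 after decanal and from 5640 to 4666 after octanal. After acetophenone 0 of 21 were called. After decanal 2 were higher and 10 lower, with a median log2 fold change of -0.22 beside 0.01 for all genes, and in the AD mixture 2 were higher and 12 lower, with a median of -0.32 beside 0.01. In the OC batch the balance lay on the other side, with 9 higher and 2 lower after octanal (median 0.22 beside -0.02), 7 higher and 1 lower after cis-3-hexenol (0.14 beside -0.01) and 9 higher and 1 lower in the OC mixture (0.21 beside -0.01). Omp, which was lower in the OC batch, thus ran against most called genes of this list, and Stoml3 ran with them after cis-3-hexenol and in the OC mixture. The count of 7 after cis-3-hexenol was 0 without cis-3-hexenol replicate 3, 2 without cis-3-hexenol replicate 1, 4 without cis-3-hexenol replicate 2 and 3 without OC control replicate 1, and the 9 after octanal ran from 6 to 12. The 2 higher genes after decanal and in the AD mixture were 1 without several single libraries, AD control replicates 1 and 3 among them, and the 2 lower after octanal were 0 without octanal replicate 1.

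Pde1c, the phosphodiesterase of olfactory cilia, fell after decanal (log2 fold change -0.60, SE 0.07, adjusted p = 6e-05) and in the AD mixture (-0.63, SE 0.07, adjusted p = 3.44e-05). It rose after octanal (0.68, SE 0.08, adjusted p = 0.000105) and in the OC mixture (0.48, SE 0.08, adjusted p = 0.000748). Adcy3, the adenylyl cyclase of odor transduction, had -0.40 after decanal (adjusted p = 0.00135), -0.51 in the AD mixture (0.000216) and 0.57 after octanal (0.000664). Gnal, the olfactory G protein alpha subunit, fell after decanal (-0.38, adjusted p = 0.00147). Ano2, the calcium-gated chloride channel, and Ric8b, an exchange factor for that G protein, rose after octanal (0.73 and 0.61, adjusted p = 0.000216 and 0.000393) and in the OC mixture (0.53 and 0.59, adjusted p = 0.00183 and 0.00067). Against the others of the list, Gng13, the G gamma subunit of mature neurons, rose after decanal (0.51, adjusted p = 0.000826) and in the AD mixture (0.61, adjusted p = 0.000196), the direction of Gng8 there. With offsets for transcript length and GC content the Gng13 values were 0.16 (adjusted p = 0.22) and 0.28 (0.0362). The values given for the other genes of this list are without offsets.

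A list of 22 other genes of immature neurons had 21 tested and did not move one way. After decanal 3 were higher and 6 lower, in the AD mixture 2 and 3, after octanal 2 and 4, after cis-3-hexenol 1 and 3, and in the OC mixture 1 and 6, with median log2 fold changes from -0.13 to -0.03 beside -0.02 to 0.01 for all genes, and acetophenone called 0. The OC mixture count of 6 lower was 2 to 5 with each library left out in turn, lowest without OC control replicate 1, and the cis-3-hexenol count of 3 lower was 0 without OC control replicate 1 or any 1 exposed library and 1 without OC control replicate 3. Dpysl5, a relative of Crmp1, fell after decanal (-0.69, SE 0.09, adjusted p = 7.01e-05) and in the AD mixture (-0.55, adjusted p = 0.000361) and rose after octanal (0.47, adjusted p = 0.0023), the directions of Crmp1. Cd24a, a surface glycoprotein of young neurons, rose after decanal (0.52, adjusted p = 0.00454) and in the AD mixture (0.54, adjusted p = 0.00351) and fell after octanal (-0.37, adjusted p = 0.0036), the directions of Stmn1. Map1b, a microtubule-associated protein of growing axons, fell after decanal (-0.29, adjusted p = 0.000425) and in the AD mixture (-0.35, adjusted p = 8.59e-05). Nrp2, a semaphorin receptor, fell after octanal (-0.42, adjusted p = 0.00181) and in the OC mixture (-0.46, adjusted p = 0.00126), and Hdac2, a histone deacetylase, rose in both (0.43 and 0.44, adjusted p = 0.000264 and 0.000335). With length and GC offsets Nrp2 was at -0.25 and -0.22 and Hdac2 at 0.28 and 0.26, still called.

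Relatives of the members by gene family were also split. Of 30 tested (stathmins, collapsin response mediators, beta-tubulins, neurofilaments, G gamma subunits and stomatins), 7 were higher and 8 lower after decanal, 6 and 2 in the AD mixture, 5 and 6 after octanal, 0 and 2 after cis-3-hexenol and 3 and 4 in the OC mixture, and acetophenone called 0. Their medians lay between -0.07 and 0.09. The 8 lower after decanal were 2 without AD control replicate 1 and 4 without AD control replicate 3, the 7 higher were 4 without AD control replicate 3, decanal replicate 1 or decanal replicate 3, and the 5 higher after octanal were 2 without octanal replicate 2 and 3 without OC control replicate 3. After cis-3-hexenol the counts of 0 and 2 were 3 and 4 without OC control replicate 2, 1 and 3 without OC control replicate 3, and 0 and 0 without cis-3-hexenol replicate 2 or 3. The 3 higher in the OC mixture were 6 without OC mixture replicate 2, and the 2 lower in the AD mixture were 1 without AD mixture replicate 3. Stmn3 rose after decanal (0.39, adjusted p = 0.000769) and in the AD mixture (0.42, adjusted p = 0.000409) and fell after octanal (-0.60, adjusted p = 0.000239), as Stmn1 did, and with length and GC offsets these values were 0.15 (adjusted p = 0.0781), 0.21 (0.0187) and -0.39 (0.00438). Stmn4 fell after octanal (-0.38, adjusted p = 0.000627) and in the OC mixture (-0.34, adjusted p = 0.00145). Dpysl2 fell after octanal (-0.63, adjusted p = 0.000284), where its relatives Crmp1 and Dpysl5 rose. Stom, the founder of the stomatin family, rose in the OC mixture with Stoml3 (0.35, adjusted p = 0.000874). Of 15 progenitor and nascent neuron genes tested, 2 were higher and 2 lower after decanal, 2 and 0 in the AD mixture, 4 and 4 after octanal, 0 and 1 after cis-3-hexenol, and 2 and 2 in the OC mixture, with medians between -0.04 and 0.08, and acetophenone called 0 at a median of 0.12. These progenitor counts were not stable to leaving out single libraries. After octanal the 4 higher ran from 0 (without octanal replicate 2) to 4 and the 4 lower from 1 (without octanal replicate 1) to 4, and both were 2 without OC control replicate 3. The 2 higher after decanal were 0 without AD control replicate 1 or 3 or decanal replicate 1 or 3, and those in the AD mixture 0 without AD control replicate 3 or AD mixture replicate 1 or 2. The 1 lower after cis-3-hexenol was 4 without OC control replicate 2 and 0 without OC control replicate 3 or any 1 exposed library. In the OC mixture the 2 higher ran from 1 (without OC mixture replicate 1 or 3) to 4 (without OC mixture replicate 2), and the 2 lower were 4 without OC control replicate 2. Mki67, a marker of dividing cells, fell in the OC mixture (-1.05, SE 0.21, adjusted p = 0.00217). Nhlh1, a transcription factor of nascent neurons, fell after octanal (-0.97, SE 0.22, adjusted p = 0.00416), as did Hes6 (-0.25, adjusted p = 0.0164). Mcm2 (0.46, adjusted p = 0.0125) and Nhlh2 (0.32, adjusted p = 0.0149) of the same list rose after octanal, so the list did not move one way.

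With the length and GC offsets Omp kept its 3 calls, at -0.38 after octanal (adjusted p = 0.00025), -0.25 after cis-3-hexenol (0.014) and -0.22 in the OC mixture (0.0086). Crmp1, Nefh, the AD mixture call of Stmn2, and Dcx after octanal (-0.27, adjusted p = 0.019) and in the OC mixture (-0.30, 0.016) also stayed called. The calls of Gap43, Gng8 and Stmn1, and that of Dcx after cis-3-hexenol, were lost, at the values given above. Gap43, Gng8 and Stmn1 have the 3 shortest of the longest transcripts among the members, at 1420, 910 and 1060 bases. Values that gained a call with the offsets were Tubb3 after decanal (-0.21, adjusted p = 0.0164), Stmn2 after decanal (0.23, 0.0341) and octanal (-0.26, 0.0168), Stoml3 after octanal (0.19, 0.0492) and Crmp1 in the OC mixture (0.30, 0.0161). The source of the trend was not tested.

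**Figure D4:**
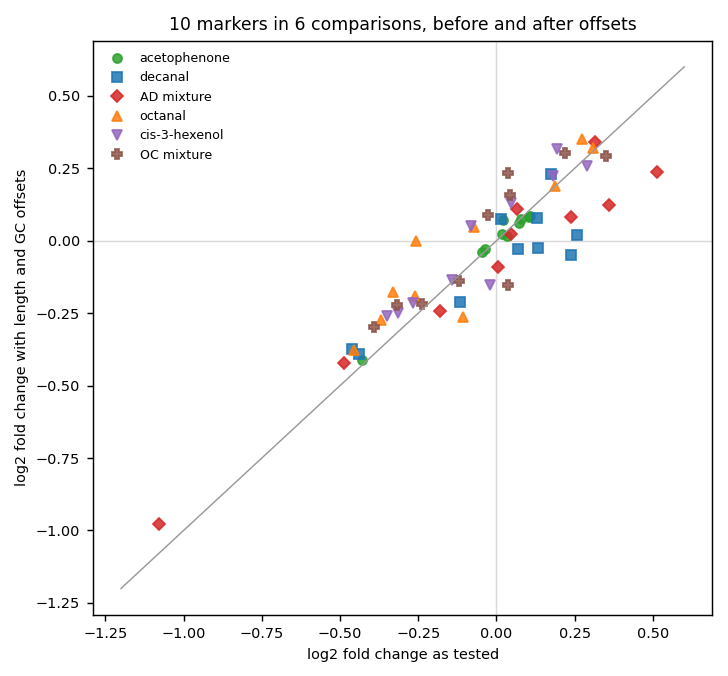
Log2 fold change of 10 markers in 6 comparisons as tested (horizontal) and with length and GC offsets (vertical), with a line of equal values. Each symbol is 1 marker in 1 comparison; Gng8 in the AD mixture goes from 0.51 to 0.24, while Nefh in the AD mixture stays lowest on both axes.

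Decanal and octanal, straight-chain aldehydes that differ in chain length, were given at the same volume and time but in different batches, so the difference of their responses was tested in a fit of all 24 libraries. It was called for 7 of 10 members, 1 higher and 6 lower in the octanal response, against 39.2% of all 20018 genes called in either direction. Crmp1 differed by 0.73 in log2 units (SE 0.11, adjusted p = 1.57e-05), falling after decanal and rising after octanal. Stmn1 differed by -0.61 (SE 0.11, adjusted p = 6.99e-05), rising after decanal and falling after octanal. Omp differed by -0.60 (SE 0.08, adjusted p = 3.02e-06), Gng8 by -0.51 (SE 0.16, adjusted p = 0.0136), Gap43 by -0.41 (SE 0.12, adjusted p = 0.0101), Dcx by -0.40 (SE 0.10, adjusted p = 0.00182) and Stmn2 by -0.30 (SE 0.10, adjusted p = 0.0208). No difference was called for Stoml3 (0.10, 95% interval -0.13 to 0.33, adjusted p = 0.506), Tubb3 (0.03, -0.21 to 0.27, 0.884) or Nefh (0.71, 0.06 to 1.37, 0.0787). In the list of 21 mature neuron genes, 13 were higher and 3 lower in the octanal response, with a median of 0.45 beside -0.07 for all genes. With length and GC offsets 4 of the 7 differences were called: the Gng8 difference turned to 0.035 (adjusted p = 0.876), and the Gap43 and Stmn1 differences were lost at -0.17 (0.287) and -0.21 (0.108). The Stmn2 difference was lost without AD control replicate 3 (-0.23), decanal replicate 1 (-0.28) or 3 (-0.23), OC control replicate 1 (-0.26) or 3 (-0.24), or octanal replicate 1 (-0.22), Gap43 without AD control replicate 3 (-0.31) or OC control replicate 1 (-0.28), and Gng8 without AD control replicate 1 (-0.44), OC control replicate 1 (-0.35) or octanal replicate 1 (-0.41). Nefh was called without decanal replicate 2 (0.92) or OC control replicate 1 (0.91), and Tubb3 without OC control replicate 3 (0.21). Chain length, batch and the erythroid, marrow and bone markers given above cannot be told apart in this contrast.

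**Figure D5:**
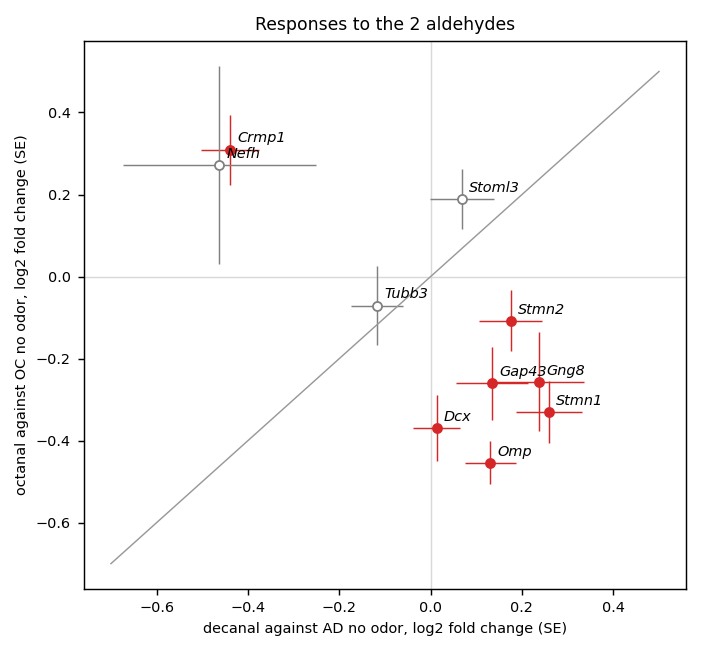
Log2 fold change of each marker after decanal against the AD controls (horizontal) and after octanal against the OC controls (vertical), with standard errors as bars and a line of equal responses. Filled red symbols are the 7 members whose difference was called; 6 of them lie below the line and Crmp1 lies above it.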

How the data were processed

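Expected counts for each Ensembl gene were deposited, in 1 table per batch, and library totals differ, so the values are unscaled. STAR 2.7.10b, Salmon 1.10.1, R 4.4.2 and build GRCm39 are named in the submitters' processing notes, and the role of each and the annotation are not given in the sources used here. Expected counts that were not whole (12.8% and 12.6% of values) were rounded, by at most 0.5. Symbols for 52029 of 57010 genes, longest transcripts and GC content were matched by Ensembl ID to GENCODE M21, which annotates another build, so no gene coordinates are given beside the RefSeq promoter windows.

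The members and gene lists were chosen with earlier results of these data known. Members were tested with edgeR 4.0.16 (filterByExpr, TMM, quasi-likelihood F-test, two-sided) in R 4.3.3, in 1 fit per batch over 12 libraries and 4 groups, and in 1 fit of 24 libraries for the aldehydes. P-values were adjusted over all 19525 (AD), 19175 (OC) or 20018 genes tested. Standard errors were taken as the absolute log2 fold change over the square root of the F statistic. From each list up to 4 called genes per comparison by p, with a mean count of at least 20, could be named, besides all members, the 5 genes most like Omp and the 5 most like Gap43, and Capn5. Nefl, Nefm and Ina, the levels of Cyp2g1, Trpc2 and Scn10a that check the tissue, and Alas2 fall outside this rule and were chosen after values were seen. Capn5 had been written down as lying on the strand opposite Omp, and the annotation places it on the same strand. Alternatives were DESeq2 1.42.0 (Wald test) and its size factors, no filter, a filter of 1 CPM in 3 libraries, a replicate block, a robust fit, length and GC offsets (span 0.5), only the libraries compared, and leaving out each library. The labels give 3 biological replicates per group. Their numbers were checked for pairing, which that check could not exclude, and were not used as pairs in the main tests. The pipeline was tested on simulated counts.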

Additional observations from a re-analysis of the deposited data

Results flagged for a closer look

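For 7 members the response to octanal and the response to decanal differed by a test of the difference itself (edgeR over 24 libraries, log2 scale, octanal minus decanal). The difference was -0.60 for Omp, -0.41 for Gap43, -0.51 for Gng8, -0.61 for Stmn1, -0.30 for Stmn2 and -0.40 for Dcx, and 0.73 for Crmp1. Each response was measured in its own batch, so the aldehyde and the batch cannot be told apart, and 39.2% of all genes tested also had a called difference. With length and GC offsets the Omp, Stmn2, Dcx and Crmp1 differences stayed called, and those of Gap43, Gng8 and Stmn1 did not.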

How the results depend on the processing

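Against no odor, 22 of 60 member results were called, of which 11 stayed called in all 15 settings and 11 were lost in at least 1, and of the 38 not called 8 were called in at least 1. The share of all genes called in each comparison is given with the member counts above. With length and GC offsets, with or without the replicate block, the count of members called fell from 7 to 4 in the AD mixture and from 7 to 4 for the aldehyde difference, and for cis-3-hexenol from 4 to 2 without the block and 1 with it. Over all genes, calls fell from 4347 to 3360 without the block and 3265 with it in the AD mixture. They fell from 7845 to 6745 and 6662 for the difference, and from 2341 to 1289 and 923 for cis-3-hexenol. Only the 6 libraries compared gave 4 for decanal in place of 2 and 1 for cis-3-hexenol in place of 4. Over all genes that setting gave 5155 calls for decanal in place of 4660 and 1047 for cis-3-hexenol in place of 2341. The Gng8 aldehyde difference of -0.51 turned to 0.035 with the offsets and to 0.044 with the offsets and the block, and the cause was not tested. Leaving out each library in turn gave counts of 0 to 0 for acetophenone, 1 to 2 for decanal, 5 to 7 for the AD mixture, 4 to 6 for octanal, 1 to 4 for cis-3-hexenol, 3 to 5 for the OC mixture and 5 to 8 for the difference. Over all genes these runs called 0 to 39, 3391 to 4145, 3087 to 4207, 4054 to 5764, 533 to 3150, 3035 to 4960 and 7101 to 7886 genes, in that order. A replicate block, which pairs libraries by their number, gave 0, 3, 6, 4, 3 and 3 in the same order and 7 for the difference. Over all genes the block called 1, 4480, 4240, 5196, 1883 and 4276 genes, and 7799 for the difference. It called Omp after decanal (adjusted p = 0.0392) and lost Tubb3 in the AD mixture (0.0509), Gap43 after octanal (0.052) and Stmn1 after cis-3-hexenol (0.0532) and in the OC mixture (0.0511), and changed no other call. No comparison had all 3 same-numbered correlations over 0.1 (for octanal 0.19, -0.15 and 0.13, and for decanal 0.13, 0.38 and 0.02). The numbers were therefore not used as pairs in the main tests. With 3 mice per group this check cannot exclude pairing. For acetophenone 0 members were called and 0 had an unadjusted p under 0.05, and DESeq2 also called 0, while 1287 genes were under 0.05 unadjusted. DESeq2 called 3, 7, 6, 4 and 5 members for the other odorants in that order. Over all genes DESeq2 called 25 for acetophenone and 4682, 4402, 5591, 2865 and 4778 for the others. Nefh, at 36 to 108 counts per library, had standard errors of 0.21 to 0.25, and its values of -0.43 after acetophenone and -0.46 after decanal were not called.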
